A study of Sus scrofa with 4 samples.

Results

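Nuclear receptors for steroids, vitamin D, thyroid hormone and lipids were examined in sorted cells of the pig epidermis and hair follicle. The 9 genes were NR3C1, NR3C2, ESR1, VDR, RXRA, THRA, THRB, PPARD and RORA. They were taken from a list of names, out of 29837 named genes in the count table, and all 9 passed the filter that left 15980 genes for testing. Juvenile pigs 88R and 95R each gave 1 LGR5-high and 1 LGR5-negative library. Both pigs carry a histone H2B-GFP knock-in in exon 1 of one LGR5 allele, made in clonal fetal fibroblasts that were used for nuclear transfer, so the LGR5-negative cells carry the same allele as the LGR5-high cells. GFP brightness in live cells from trypsin-treated hair and epidermis defined the populations, and LGR5 is a WNT-signal receptor of hair follicle stem cells.

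Nuclear receptors are transcription factors that bind small fat-soluble ligands. The receptors for glucocorticoids (NR3C1), mineralocorticoids (NR3C2) and estrogen (ESR1) bind DNA mainly as dimers of themselves. Those for vitamin D (VDR), thyroid hormone (THRA and THRB) and fatty acids (PPARD) pair with RXRA, the shared retinoid X receptor. RORA binds DNA as a single molecule and takes part in the circadian clock. In skin, glucocorticoids and vitamin D act on keratinocyte growth and differentiation, and loss of VDR or of its partner corepressor hairless stops hair cycling in mice and humans.

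The libraries held between 30696803 and 32463362 counts on named genes. LGR5 had 132 and 188 CPM (counts divided by the TMM-scaled library size) in LGR5-high and 1.26 and 3.61 CPM in LGR5-negative. Of 8 keratinocyte markers, 7 were in the table. Their summed level was 37300 and 38710 CPM in LGR5-high and 101100 and 88870 CPM in LGR5-negative. Of the 7, 2 were lower, KRT1 and KRT10 of the differentiated epidermis, and 1, EPCAM, was higher. The other 4, KRT5, TP63, DSP and CDH1, were not called. Other cell types' markers also moved with the sort. Of the 6 Langerhans and macrophage markers tested, 4 were lower and 1 higher in LGR5-high, and their sum was between 16.3 and 16.5 CPM there against 103 and 147 CPM. Of 6 melanocyte markers 4 were lower, with a sum of 61.9 CPM in both LGR5-high libraries against 82.7 and 256 CPM. Of 5 endothelial markers tested 4 were lower, with 6.25 and 7.48 CPM against 21.0 and 21.4 CPM. Of 6 fibroblast markers 4 were lower and 1 higher, with 232 and 449 CPM against 346 and 225 CPM. Of 4 muscle markers tested all were higher, with 403 and 292 CPM against 15.3 and 14.7 CPM. Of 5 nerve and Schwann markers tested 3 were higher and 1 lower, with 64.9 and 84.4 CPM against 5.54 and 10.9 CPM. Of 5 sebocyte markers tested 2 were higher and 1 lower, with 1083 and 984 CPM against 1079 and 1021 CPM, and AWAT1 was at 0 in all 4 libraries. No T cell marker reached the filter, with a sum of at most 0.364 CPM, and CD3E and CD3D were at 0 in both LGR5-high libraries. The part of these cells in the receptor results was not tested unless stated below.

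Of the 9 receptor genes, 6 were called different between the populations and 3 were not. VDR and THRA were higher in LGR5-high, and RORA, THRB, PPARD and RXRA were lower, with RORA at 7.03-fold lower the most changed member. A call means an adjusted p under 0.05 in the quasi-likelihood test of edgeR, adjusted by Benjamini and Hochberg's method over all 15980 genes. Of all tested genes, 22.7% were called higher and 22% lower, so 2 of 9 receptors higher and 4 of 9 lower stand beside a background in which 44.7% of genes were called. In size, ignoring sign, the log2 fold changes had a median of 0.48 for the 9 receptors and 0.47 for all tested genes. The median signed value was -0.24 among the receptors and 0.015 among all genes. Blocking on the pig gave 2 receptors higher and 5 lower, beside 28.5% and 27.2% of all genes in those directions and 55.7% in either. When libraries were scaled by their size alone and not by TMM, the median of all genes moved to 0.24. Then 2 receptors were higher and 2, RORA and THRB, lower, beside 5473 higher and 2326 lower of all tested genes. In these bulk samples, fewer cells of one type cannot be told apart from less RNA of a gene per cell. The p-values of the main test rest on the spread between 2 pigs within a population, combined with information on variance from all tested genes. They leave out the pairing by pig, which the block takes in.

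**Figure D1:**
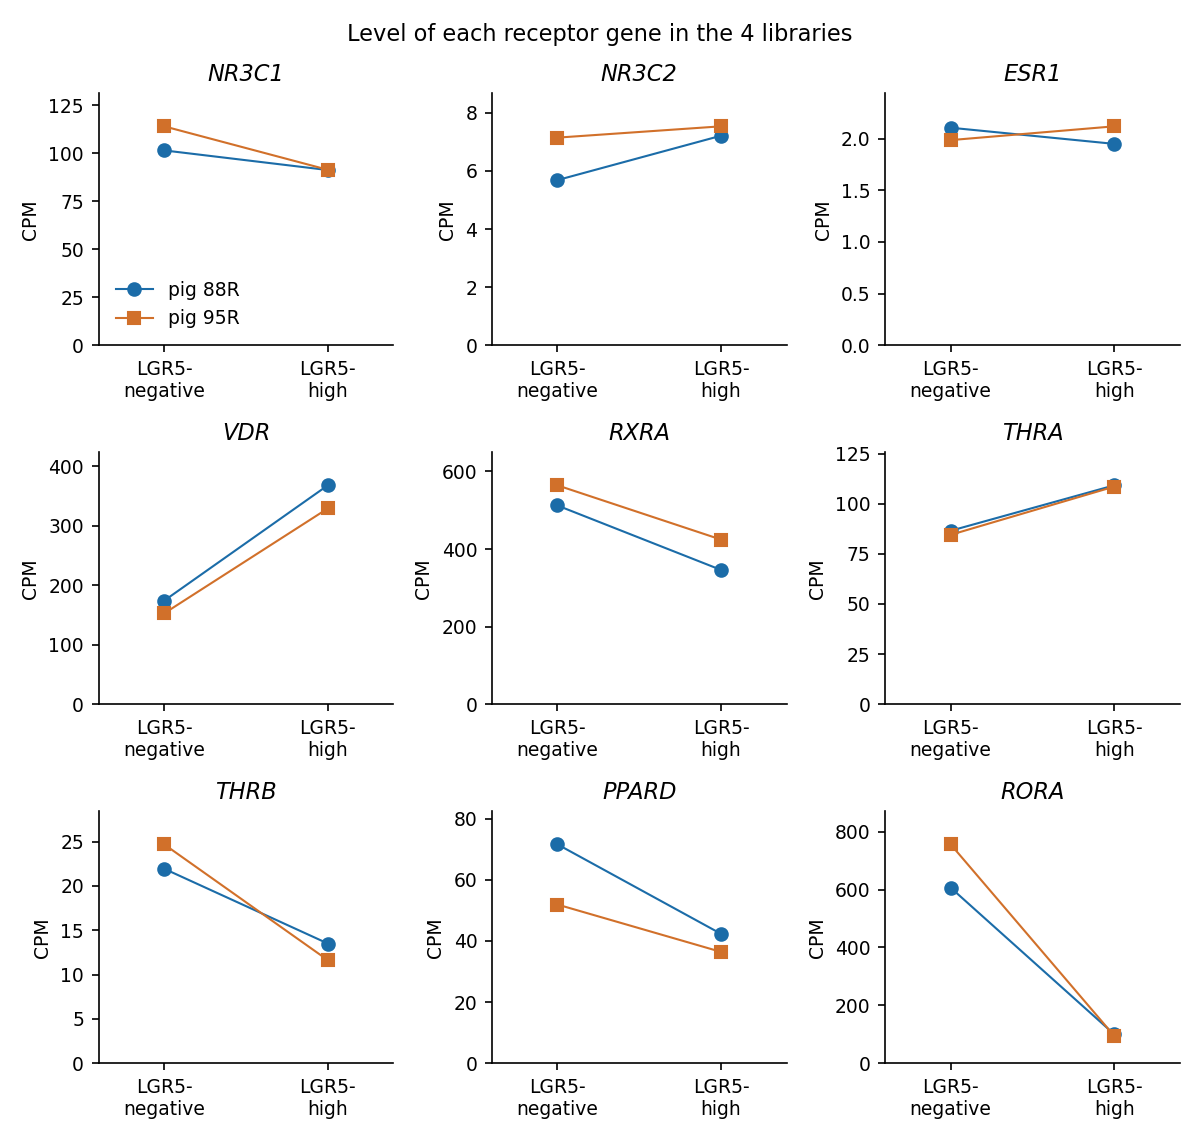
Level of each receptor gene in CPM (vertical axes from 0, a scale of its own for each gene) in LGR5-negative and LGR5-high, with a line joining the libraries of each pig. The lines of VDR and THRA rise and those of RORA, THRB, PPARD and RXRA fall in both pigs, while those of ESR1 cross.

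NR3C1, the glucocorticoid receptor, had 91.3 CPM in LGR5-high of pig 88R and 91.4 CPM in that of pig 95R, against 102 and 114 CPM in LGR5-negative. Values are given below in the same order, pig 88R first. Both LGR5-high values lay below both LGR5-negative values. The populations did not overlap for 8 of the 9 receptors, beside 76.6% of all tested genes. The log2 fold change was -0.24 (standard error 0.0882, 95% interval -0.46 to -0.02), and it was not called (edgeR adjusted p = 0.0736). Under the block on the pig NR3C1 was called lower, with -0.24 (edgeR adjusted p = 0.0367). Scaled by library size alone it had -0.016, so the size of this difference rested on the scaling.

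NR3C2, the mineralocorticoid receptor, which binds cortisol as well as aldosterone, had 7.21 and 7.54 CPM in LGR5-high and 5.68 and 7.15 CPM in LGR5-negative. The LGR5-negative library of pig 88R was the lowest and the other 3 lay close together. The log2 fold change of NR3C2 was 0.20 (standard error 0.192, 95% interval -0.27 to 0.67, edgeR adjusted p = 0.432). ESR1, the estrogen receptor alpha, had 67 and 70 counts in LGR5-high and 60 and 60 counts in LGR5-negative, or 1.95 and 2.12 CPM against 2.11 and 1.99 CPM. The groups of ESR1 overlapped, and the 2 pigs went in opposite directions. For ESR1 the log2 fold change was -0.01 (standard error 0.261, edgeR adjusted p = 0.982), and its 95% interval of -0.65 to 0.64 leaves room for changes of either sign at this depth.

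VDR, the receptor for calcitriol, the active form of vitamin D, had 368 and 329 CPM in LGR5-high and 174 and 152 CPM in LGR5-negative. Both LGR5-high libraries were well above both LGR5-negative libraries. The log2 fold change was 1.09 (standard error 0.105, 95% interval 0.84 to 1.35, edgeR adjusted p = 0.000742), a 2.13-fold higher level. The pigs gave 1.08 and 1.11. VDR was called under 12 of 13 alternatives, which included leaving out each library.

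RXRA, the partner with which VDR, the thyroid hormone receptors and PPARD bind DNA, went the other way from VDR. It had 346 and 424 CPM in LGR5-high and 512 and 564 CPM in LGR5-negative. All LGR5-high values lay below all LGR5-negative values, and pig 95R was above pig 88R in both populations. The log2 fold change of RXRA was -0.48 (standard error 0.122, 95% interval -0.78 to -0.18, edgeR adjusted p = 0.0228), a 1.397-fold lower level. The call was lost without the LGR5-high library of pig 88R (log2 fold change -0.35, edgeR adjusted p = 0.0933) and without the LGR5-negative library of pig 95R (-0.42, edgeR adjusted p = 0.0566). With library size only RXRA had a log2 fold change of -0.26 (edgeR adjusted p = 0.124).

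The genes of the thyroid hormone receptors moved in opposite directions. THRA encodes the alpha receptors and a splice form that binds no hormone, and THRB the beta receptors. THRA had 109 CPM in both LGR5-high libraries and 86.5 and 84.5 CPM in LGR5-negative. The libraries of one population differed by less than the populations did. The fitted log2 change was 0.35 (standard error 0.0739, 95% interval 0.17 to 0.53, edgeR adjusted p = 0.0126), a 1.27-fold higher level. The call of THRA was lost with each library left out in turn: the adjusted p from edgeR lay between 0.0508 and 0.0728, while the log2 fold change stayed between 0.32 and 0.36. With library size only it was 0.57.

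THRB had 13.5 and 11.6 CPM in LGR5-high and 21.9 and 24.7 CPM in LGR5-negative. Both LGR5-negative libraries were above both LGR5-high libraries. This gave a log2 fold change of -0.89 (standard error 0.141, 95% interval -1.24 to -0.54, edgeR adjusted p = 0.00446), a 1.86-fold lower level, and the pigs gave -0.70 and -1.08. THRB was called lower under 12 of 13 alternatives, which included leaving out each library.

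PPARD, a fatty acid receptor of keratinocytes, had 42.3 and 36.4 CPM in LGR5-high and 71.6 and 51.9 CPM in LGR5-negative. The LGR5-negative libraries differed from each other more than the LGR5-high libraries did, and pig 88R was the higher in both populations. The log2 fold change of PPARD was -0.65 (standard error 0.173, 95% interval -1.08 to -0.22, edgeR adjusted p = 0.0274), a 1.57-fold lower level. Without the LGR5-negative library of pig 88R it was -0.41 (edgeR adjusted p = 0.0699). Without the LGR5-high library of pig 88R the adjusted p from edgeR was 0.0577 and without that of pig 95R it was 0.142, and with library size only PPARD had -0.42 (edgeR adjusted p = 0.0854).

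RORA, an orphan-type receptor that binds sterols, had 3427 and 3108 counts in LGR5-high and 17281 and 22851 counts in LGR5-negative. In CPM these were 99.7 and 94.1 against 606 and 756. The LGR5-negative libraries were both several times above the LGR5-high libraries. The log2 fold change of RORA was -2.81 (standard error 0.131, 95% interval -3.14 to -2.49, edgeR adjusted p = 9.27e-05), and the pigs gave -2.60 and -3.01. Its size was at percentile 93.2 of all tested genes. RORA was called with each library left out in turn, where the log2 fold change lay between -2.97 and -2.65, and under 12 of 13 alternatives in all. Markers of differentiated keratinocytes and of some other cells were lower beside RORA, and those of others were higher. KRT1 and KRT10 had log2 fold changes of -3.56 and -3.44. The medians of tested markers were -3.85 for Langerhans cells and macrophages, -3.16 for melanocytes, -2.84 for endothelium and -1.78 for fibroblasts. They were 2.89 for muscle, 2.81 for nerve and Schwann cells and 0.066 for sebocytes. The part of these cells in the RORA difference was not tested.

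**Figure D2:**
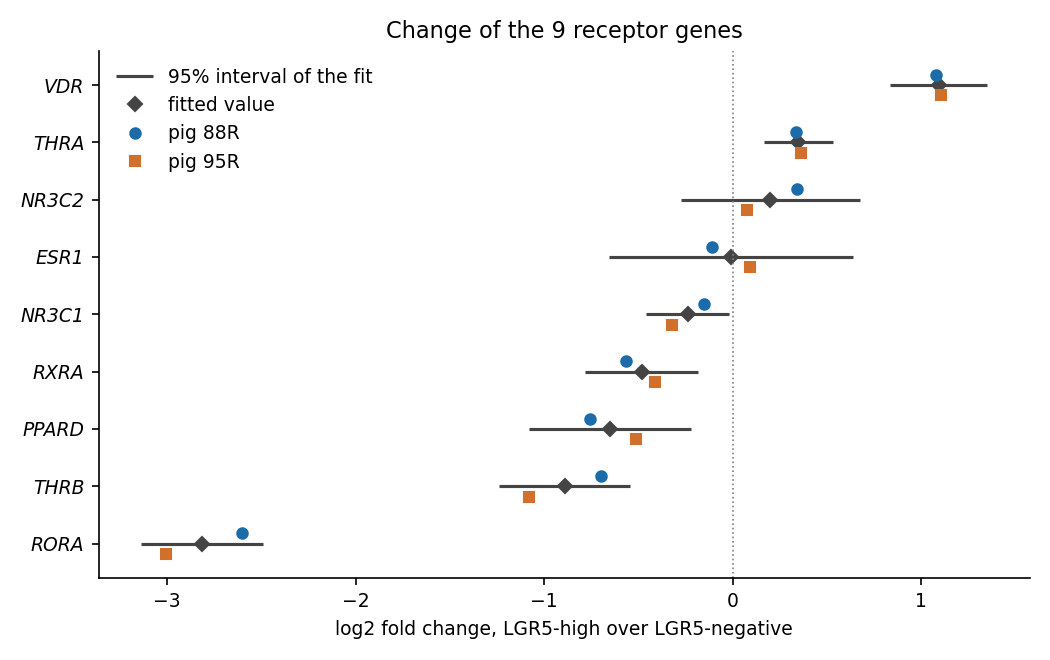
Log2 fold change of LGR5-high over LGR5-negative for the 9 receptor genes, with the fitted value (diamond), its 95% interval (line) and the value in each pig (circle 88R, square 95R). RORA lies at -2.81 and VDR at 1.09, and the intervals of NR3C2 and ESR1 cross 0.

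Ratios of counts within a library need no gene length to be compared between populations, and no scaling between libraries. THRA had 8.09 and 9.34 counts for each count of THRB in LGR5-high, and 3.94 and 3.42 in LGR5-negative. The ratio was thus 2.05 times as high in LGR5-high in pig 88R and 2.73 times in pig 95R. VDR had 1.06 and 0.775 counts for each count of RXRA in LGR5-high and 0.339 and 0.270 in LGR5-negative, which is 3.13 and 2.87 times as high. NR3C1 had 12.7 and 12.1 counts for each count of NR3C2 in LGR5-high and 17.9 and 16.0 in LGR5-negative. That ratio was 1.41 and 1.32 times as high in LGR5-negative. PPARD had 0.122 and 0.0858 counts for each count of RXRA in LGR5-high and 0.140 and 0.0920 in LGR5-negative, so its ratio differed more between the pigs than between the populations. These ratios were not tested, since an exact permutation test of 2 against 2 libraries cannot give a p below 0.333.

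**Figure D3:**
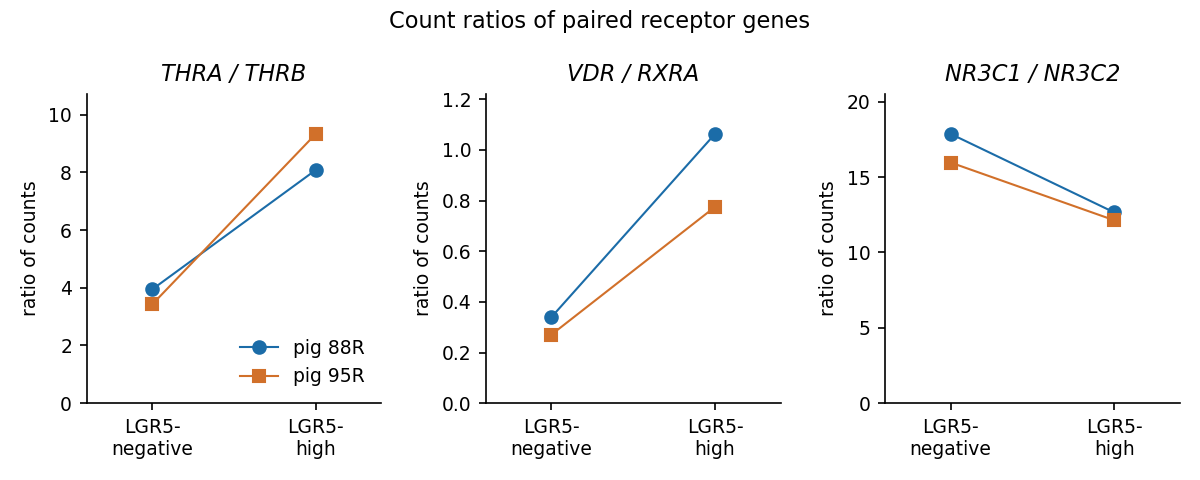
Counts of THRA for each count of THRB, of VDR for each of RXRA and of NR3C1 for each of NR3C2 (vertical axes from 0, ratio of counts) in LGR5-negative and LGR5-high, with a line for each pig. THRA to THRB and VDR to RXRA rise in both pigs and NR3C1 to NR3C2 falls.

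The genes ESR1, VDR, RXRA, THRB and PPARD have no overlapping gene model in RefSeq's Sscrofa11.1 annotation. THRA overlaps NR1D1, the gene of the clock repressor REV-ERB alpha, and the strand setting of the counting is not given in the sources used here. NR1D1 had 831 and 1189 counts in LGR5-high and 2751 and 3608 in LGR5-negative, the opposite direction to THRA, and reads of the shared stretch cannot be assigned to either gene from the table. The models that overlap NR3C1, NR3C2 and RORA had at most 9 counts in any library.

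The tested genes whose profile was most like a receptor's were found by the Euclidean distance between mean-centred log2 CPM values over the 4 libraries. Genes with a symbol that starts with LOC were left out of this search. For RORA the nearest gene was BMP2, a bone morphogenetic protein, at a distance of 0.0324 and with a log2 fold change of -2.80. For VDR it was FAM212B (0.0434), for RXRA VSTM5 (0.0366), for THRA ZNF45 (0.0104), for THRB RELT (0.0394) and for PPARD FAM69A (0.0134).

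Vitamin D is made, carried and broken down by a small set of genes. Of 8 listed genes 6 were tested, 4 being higher and 1 lower in LGR5-high, beside 22.7% and 22% of all tested genes, with a median log2 fold change of 1.78. CYP27B1, the enzyme that makes calcitriol, had 692 and 573 counts in LGR5-high and 209 and 210 in LGR5-negative. On the log2 scale the change was 1.39 (standard error 0.147, edgeR adjusted p = 0.00106). CYP24A1, which breaks calcitriol down and is itself a classic VDR target, had 71 and 36 counts against 2 and 2. The ratio of its scaled counts was 23.3 (95% exact interval 8.84 to 87.1, for counting error only), and it was called higher (edgeR adjusted p = 0.00251). DHCR7, which turns the vitamin D precursor into cholesterol, rose by 2.78 (standard error 0.135, edgeR adjusted p = 0.000102), from 8.26 ± 0.813 CPM (SD, n = 2) in LGR5-negative to 56.7 ± 5.56. CYP2R1, which makes the circulating form of vitamin D, had 585 and 560 counts against 958 and 1033 and was the gene that fell, its log2 fold change being -0.997 (standard error 0.103, edgeR adjusted p = 0.000981).

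Thyroid hormone is supplied to its receptors by deiodinases and membrane carriers. Of 10 listed genes 8 were tested, with 5 higher and 0 lower in LGR5-high by edgeR, beside 22.7% and 22% of all tested genes. The list had a median log2 fold change of 1.88. When every library had to hold at least 10 counts 3 were higher, since DIO3 and DIO1 then went untested. At an unadjusted p under 0.05 there was 1 lower gene, DIO2, which DESeq2 and the block on the pig called lower. DIO3, the deiodinase that inactivates thyroid hormone, had 781 and 935 counts in LGR5-high and 9 and 14 in LGR5-negative. That is a log2 fold change of 6.01 (standard error 0.251, edgeR adjusted p = 6.84e-05). DIO1, which can activate or clear the hormone, had 168 and 106 counts against 1 and 4, a ratio of 47.7 (95% exact interval 20.2 to 148, counting error only). DIO2, the activating deiodinase, had 155 and 199 counts against 203 and 367. The fitted log2 change was -0.87 (standard error 0.305) and it was not called (edgeR adjusted p = 0.0632), but the block on the pig called it lower (edgeR adjusted p = 0.000723). The value of DIO2 moved with each library left out. Without the LGR5-negative library of pig 88R it was -1.21, and without that of pig 95R it was -0.45. Without the LGR5-high library of pig 88R it was -0.68, and without that of pig 95R it was -1.09. SLC7A5, an amino acid carrier that also moves thyroid hormone, rose from 106 ± 12.5 CPM (SD, n = 2) to 407 ± 7.31 CPM.

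Of 16 tested genes of steroid handling 3 were higher and 3 lower, beside 22.7% and 22% of all tested genes. With library size only 5 were higher and 3 lower, beside 5473 and 2326 of all 15980 genes. HSD11B1, which turns inactive cortisone into cortisol, had 222 and 173 counts in LGR5-high and 775 and 676 in LGR5-negative. This gave a log2 fold change of -2.08 (standard error 0.177, edgeR adjusted p = 0.000504), a 4.23-fold lower level. HSD11B2, which does the reverse and so shields NR3C2 from cortisol, had only 13 and 11 counts against 10 and 5. On the log2 scale the change was 0.47 (95% interval -0.87 to 1.80, edgeR adjusted p = 0.516), so no difference was detectable at this depth. HSD17B2, which inactivates estradiol and testosterone, had 6983 and 8904 counts against 318 and 440. That is a log2 fold change of 4.20 (standard error 0.202, edgeR adjusted p = 9.93e-05). CYP19A1, the aromatase that makes estrogens, had 58 and 33 counts in LGR5-high and 0 in both LGR5-negative libraries, which is at least 13.1-fold higher against a floor of 3 counts per library. CYP19A1 lost its call in DESeq2 with the replicate block. HSD17B12, named for a steroid step but known for making long fatty acids, fell with a log2 fold change of -0.74 (edgeR adjusted p = 0.0023).

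**Figure D4:**
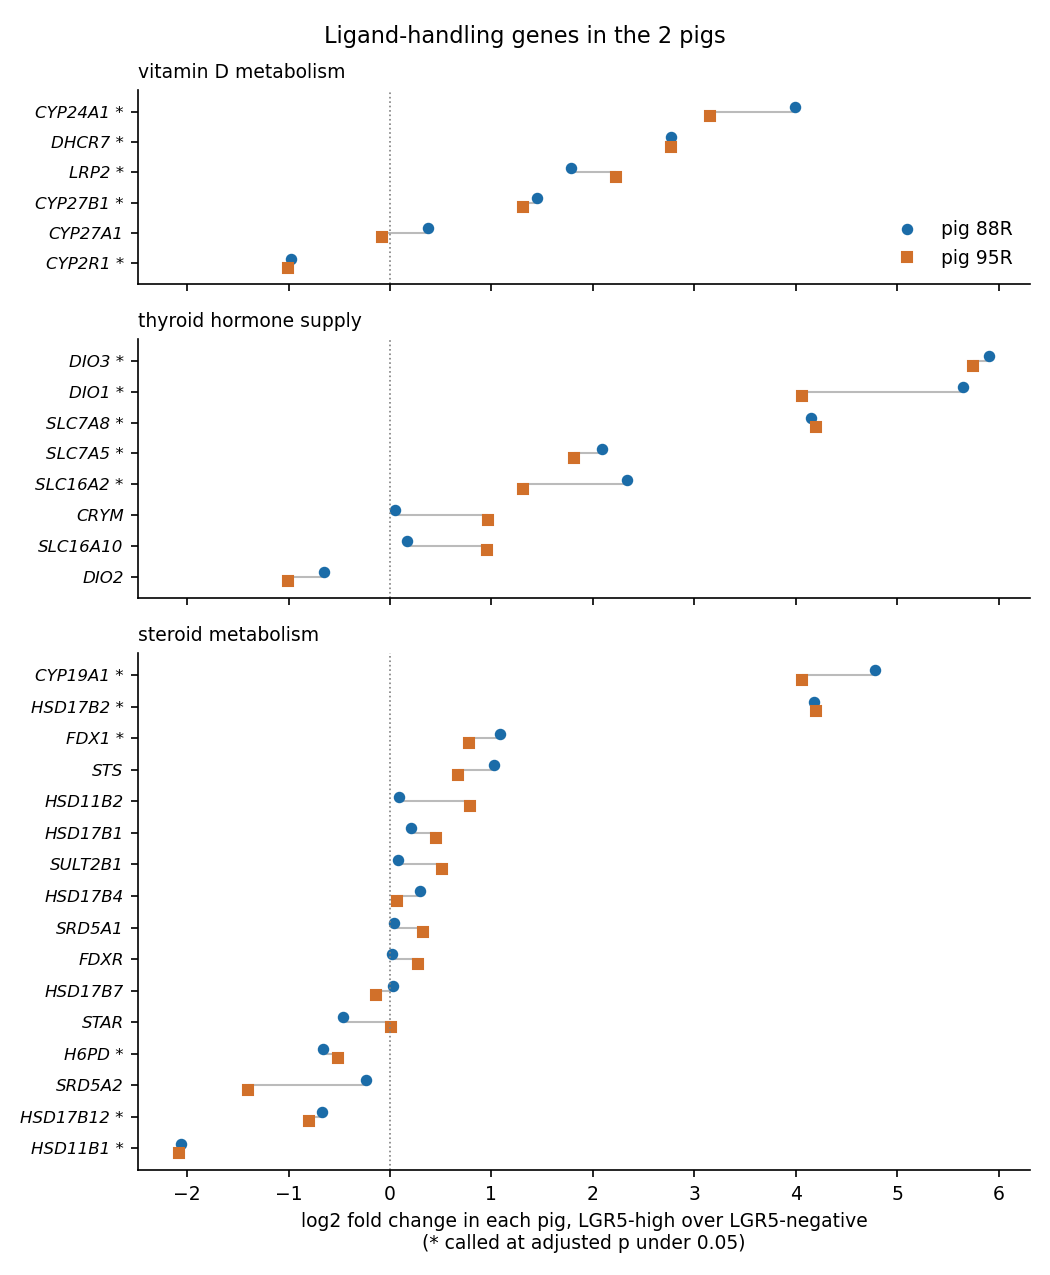
Log2 fold change of LGR5-high over LGR5-negative in each pig for the tested genes of vitamin D metabolism, thyroid hormone supply and steroid metabolism, with stars for genes called at an adjusted p under 0.05. DIO3, DIO1, SLC7A8, HSD17B2 and CYP24A1 lie far to the right in both pigs and HSD11B1 far to the left.

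Among carriers and makers of lipid ligands, 1 of 10 tested genes was higher and 4 were lower, beside 22.7% and 22% of all tested genes. The block on the pig gave 1 and 6, beside 28.5% and 27.2%. CRABP2, a retinoic acid carrier, was higher with a log2 fold change of 1.82 (standard error 0.173, edgeR adjusted p = 0.000716). The prostaglandin enzyme gene PTGS2 had 2042 and 3134 counts in LGR5-high and 15882 and 20773 in LGR5-negative. The fitted log2 change was -3.01 (standard error 0.246, edgeR adjusted p = 0.000437). PLA2G4A, which frees arachidonic acid from membranes, had -2.51 (standard error 0.148, edgeR adjusted p = 0.000168).

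Of 39 other nuclear receptors 25 were tested, with 1 higher and 10 lower in LGR5-high, beside 22.7% and 22% of all tested genes. With library size only 1 was higher and 8 lower, beside 5473 and 2326 of all 15980 genes. The block gave 4 and 12, beside 28.5% and 27.2% of all genes. The number of called genes in this list changed when a library was left out, as did the number among all tested genes. PPARA, a relative of PPARD, had 390 and 347 counts in LGR5-high and 1032 and 1147 in LGR5-negative, with a log2 fold change of -1.76 (standard error 0.114, edgeR adjusted p = 0.000212). NR1D1, which competes with RORA for the same DNA element, had -1.84 on the log2 scale (standard error 0.211, edgeR adjusted p = 0.00138). NR1H3, the oxysterol receptor LXR alpha, was the member of this list that was higher, with 0.48 (standard error 0.13, edgeR adjusted p = 0.0279). Its call was lost without the LGR5-high library of pig 95R (0.35, edgeR adjusted p = 0.1525) and without the LGR5-negative library of pig 88R (0.44, edgeR adjusted p = 0.0807).

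Of 22 coregulators 2 were higher and 7 lower, beside 22.7% and 22% of all tested genes. With library size only 7 were higher and 3 lower, beside 5473 and 2326 of all 15980 genes. No direction of the list thus holds across scalings, and all genes moved with the scaling too. Fewer were lower without the LGR5-high library of pig 95R, as among all tested genes. HR, the hairless corepressor that binds VDR and the thyroid hormone receptors, had 40892 and 42761 counts in LGR5-high and 22857 and 19992 in LGR5-negative. This gave a log2 fold change of 0.76 (standard error 0.119, edgeR adjusted p = 0.00434). NRIP1, a corepressor of several hormone receptors, had 0.96 (standard error 0.0903, edgeR adjusted p = 0.000694). The coactivators NCOA3 and NCOA2 had -0.98 and -0.56 (edgeR adjusted p = 0.00354 and 0.00327). Of 10 chaperones that hold steroid receptors ready for ligand, 1 was higher and 2 lower, beside 22.7% and 22% of all tested genes. With library size only 2 were higher and 2 lower, beside 5473 and 2326 of all 15980 genes. HSP90AA1 had -0.56 (edgeR adjusted p = 0.00548) and DNAJA1 had -0.72 (edgeR adjusted p = 0.0113), the latter lost without the LGR5-high library of pig 95R. FKBP4 had 0.35 (edgeR adjusted p = 0.0355), a call that held with the LGR5-negative library of pig 95R left out and was lost with any other left out.

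Genes known as targets of the receptors were listed by receptor, and several belong to more than one list. The counts of called genes in each list stand beside 22.7% of all tested genes called higher and 22% called lower. With library size only they stand beside 5473 higher and 2326 lower of all 15980 genes. Of 13 tested glucocorticoid targets, 2 were higher and 10 lower, or 2 and 7 with library size only. Fewer were lower without the LGR5-high library of pig 88R, as among all tested genes. TSC22D3, which encodes the glucocorticoid-induced leucine zipper, had 6733 and 7666 counts in LGR5-high and 17640 and 21496 in LGR5-negative. On the log2 scale the change was -1.64 (standard error 0.122, edgeR adjusted p = 0.000331). ERRFI1, an inhibitor of the EGF receptor, had -2.37 (edgeR adjusted p = 6.16e-05). SGK1, a kinase induced by both cortisol and aldosterone, was higher with 0.93 (standard error 0.0846, edgeR adjusted p = 0.000612). Another gene that rose was CDKN1C, a cell cycle inhibitor, with 1.51 (edgeR adjusted p = 0.00452).

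Of 9 mineralocorticoid targets 3 were higher and 3 lower, and SCNN1A, a subunit of the epithelial sodium channel, had a log2 fold change of -1.85 (edgeR adjusted p = 0.000612). The sodium pump gene ATP1B1 had 0.66 (edgeR adjusted p = 0.0101). Of 9 tested estrogen targets 5 were higher and 2 lower. With library size only 1 was lower, CA12 losing its call. CA12 also lost its call without the LGR5-high library of pig 95R. The higher ones included IGFBP4 with 4.04 and MYB with 3.08 (edgeR adjusted p = 0.000107 and 0.000192). The textbook estrogen targets PGR, GREB1 and TFF1 had between 0 and 2 counts in every library. TFF3, at 32 and 31 counts in LGR5-high against 1 and 0, was called higher, as were RET and CTSD. Of the lower genes XBP1 had -0.92 (edgeR adjusted p = 0.000667).

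Of 9 tested vitamin D targets 3 were higher and 4 lower, and CYP24A1 was among the higher ones. When every library had to hold at least 10 counts, 1 was higher, since CYP24A1 and KLK6 then went untested. CST6, a cystatin of the epidermis, had 8713 and 16264 counts in LGR5-high and 1966 and 1877 in LGR5-negative, with a log2 fold change of 2.51 (standard error 0.311, edgeR adjusted p = 0.00185). The cell cycle inhibitor CDKN1A had -1.19 and the calcium exchanger SLC8A1 -2.27 (edgeR adjusted p = 0.000294 and 0.000354). Of 8 tested thyroid hormone targets 2, HR and DIO1, were higher and 3 lower, or 3 and 1 with library size only. With either LGR5-high library left out fewer were lower, as among all tested genes. KLF9, a classic target of thyroid hormone and of cortisol, had -1.15 (standard error 0.308, edgeR adjusted p = 0.0272), a call lost with either LGR5-high library left out. Of 11 tested PPAR targets 1 was higher and 4 lower, or 4 and 2 with library size only. Without the LGR5-high library of pig 95R fewer were lower, as among all tested genes. The higher gene, ETFDH of the electron transport chain, had 0.29 and lost its call with each library left out in turn. CPT1A, which brings fatty acids into mitochondria, had 1098 and 950 counts against 3167 and 2936, with a log2 fold change of -1.78 (standard error 0.11, edgeR adjusted p = 0.000187). ANGPTL4, a lipase inhibitor, had -0.95 (edgeR adjusted p = 0.00371).

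Circadian clock genes, many of which carry the element that RORA and NR1D1 bind, were lower for the most part. Of 17 tested genes 14 were lower and 2 higher, beside 22% and 22.7% of all genes. With library size only 11 were lower and 2 higher, beside 2326 and 5473 of all 15980 genes. The median log2 fold change of the list was -0.76, beside 0.015 for all genes. The populations did not overlap for 16 of the 17 genes, beside 76.6% of all tested genes. ARNTL, the BMAL1 gene and a classic RORA target, had 492 and 523 counts in LGR5-high and 1188 and 1272 in LGR5-negative. That is a log2 fold change of -1.47 (standard error 0.109, edgeR adjusted p = 0.000324). CIART, a clock repressor, had -2.03 (standard error 0.131, edgeR adjusted p = 0.00021). The higher genes were BHLHE41 with 1.55 (edgeR adjusted p = 0.00156) and NFIL3 with 0.52 (edgeR adjusted p = 0.00753), both repressors that feed back on the clock. Repressors were also among the lower genes, such as CIART and NR1D1, and BHLHE40 had -1.27 (edgeR adjusted p = 0.000689). PER2 was not called, with a log2 fold change of -0.16 (edgeR adjusted p = 0.598). The time of day at which each pig was sampled is not given in the sources used here. Each pig gave both of its populations.

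**Figure D5:**
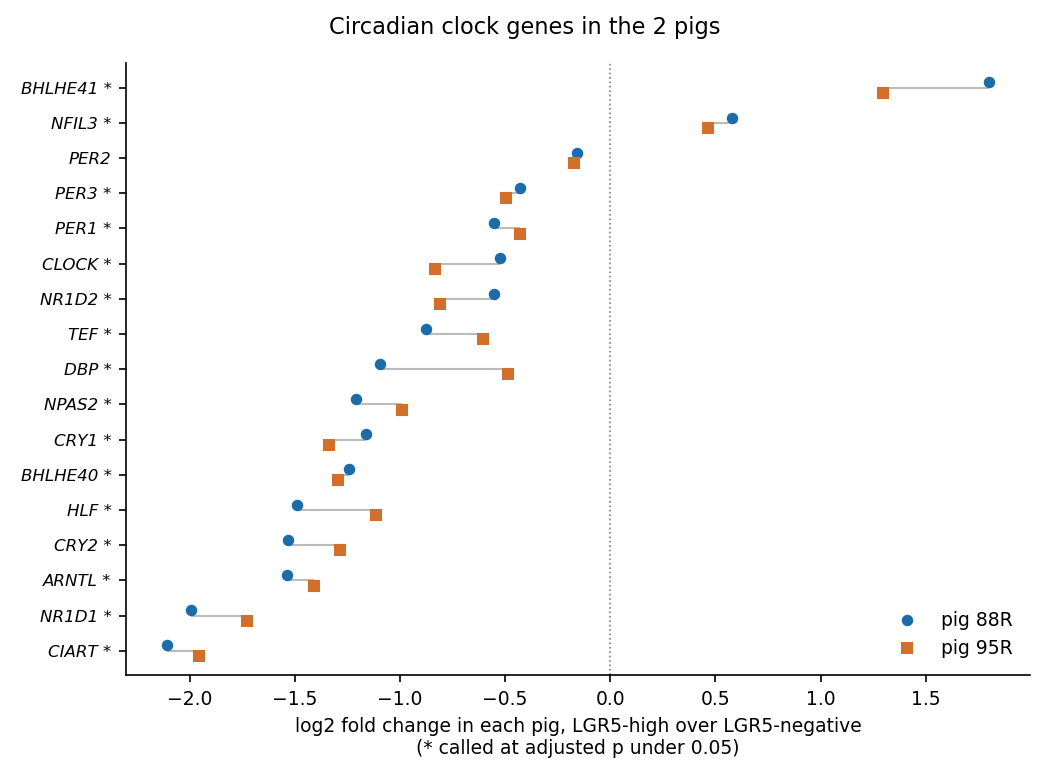
Log2 fold change of LGR5-high over LGR5-negative in each pig for the 17 tested circadian clock genes, with stars for genes called at an adjusted p under 0.05. All but BHLHE41 and NFIL3 lie below 0 in both pigs, and 11 genes were lower with library size only.

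The pigs differed less than the populations for the called receptors. Between pigs 95R and 88R the log2 difference was at most 0.294 in size in LGR5-high, for RXRA, and -0.464 in LGR5-negative, for PPARD, which was lower in pig 95R. RORA was 0.318 higher in pig 95R than in pig 88R in LGR5-negative on that scale, and THRA by -0.034 at the most. Of the receptors only ESR1 changed sign between the pigs, and the share of all tested genes that did so was not counted.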

How the data were processed

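The 4 RNA sequencing libraries came from both sorted populations of 2 pigs. The deposited table holds raw counts by gene symbol, which the authors did not normalize. The processing notes name Trimmomatic 0.36, STAR 2.5.2b, featureCounts and Subread 1.5.2, and the genome build, annotation and strand setting are not given in the sources used here. All 29837 symbols matched RefSeq's Sscrofa11.1 table, used for names and overlapping models only, and 1 unnamed entry with between 0.36% and 0.626% of counts was left out. Counts were tested in R 4.3.3 with edgeR 4.0.16: filterByExpr (minimum count 10, minimum total 15), TMM scaling and the 2-sided quasi-likelihood test, in which population was the single term, with Benjamini-Hochberg adjustment. The prior count was 0.125 in the fit and 2 for each pig's own fold change. A floor of 3 counts corresponds to between 0.0873 and 0.105 CPM, and floors and intervals of ratios cover counting error only. The libraries are paired by pig, and the 2 libraries of a pig deviated together from their group means (correlation across genes 0.37). With 2 pigs this value is the same for both by construction. Alternatives used DESeq2 1.42.0, limma 3.58.1 (voom), other scalings and filters, Student's t-test (the test of the study's methods, with a pseudocount of 1) and leaving out each library. The fits were tested on simulated data. Plots used matplotlib 3.10.9. Named genes were the 9 receptors, the enzymes HSD11B1, HSD11B2, CYP27B1, CYP24A1, DIO2 and DIO3, the genes most like each called receptor, and up to 2 higher and 2 lower genes of each list with the smallest p-values. The textbook estrogen targets, TFF3, RET, CTSD, PER2, BHLHE40, SLC7A8, KLK6 and the markers and estimates singled out beside these were named after their values were seen. The receptors and lists were chosen with earlier results of these data known.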

Additional observations from a re-analysis of the deposited data

How the results depend on the processing

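Of 117 values of the 9 receptors over the 13 alternatives, 96 kept their direction and their side of the threshold, and the cause of the other changes was not tested. ESR1, never called, changed sign when scaled by library size alone (0.22), when every library had to hold at least 10 counts (0.022) and without pig 88R's LGR5-high (0.042) or LGR5-negative (0.028) library, the lowest value with 1 library left out being -0.064. Scaling by library size alone gave 5473 higher and 2326 lower genes, 2 receptors were lower, and RXRA (-0.26) and PPARD (-0.42) lost their calls. Student's t-test called 544 and 502 genes, and among the receptors 1 higher (THRA) and 0 lower, with 2 higher and 2 lower at an unadjusted p under 0.05. Under it VDR (1.09), RXRA (-0.49), THRB (-0.84), PPARD (-0.62) and RORA (-2.79) were not called. The pig as a replicate block called NR3C1 lower (-0.24) and gave 4562 higher and 4342 lower genes, and it changed no other receptor's call. Leaving out each library gave between 2279 and 3169 higher and between 2139 and 3004 lower genes, 1 receptor higher, and between 2 and 3 receptors lower. The log2 fold changes then lay between -0.63 and -0.35 for RXRA, 0.32 and 0.36 for THRA, and -0.87 and -0.41 for PPARD. DESeq2 with and without the block, limma-voom, the DESeq2 size factors and both other filters called 2 receptors higher and 4 lower. Over 619 values of 48 other named genes, 36 calls were lost in Student's t-test and 20 under other alternatives, 4 were gained (DIO2) and 0 values changed sign. Depth limits ESR1, HSD11B2 and the untested receptors.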
